A study of Homo sapiens with 2 samples.

Results

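To describe where LDB1 lay at the globin genes, the deposited LDB1 peaks within 60 kb of the alpha and beta globin genes were collected. The genes were HBE1, HBG2, HBG1, HBD and HBB on chromosome 11 and HBZ, HBM, HBA2, HBA1 and HBQ1 on chromosome 16. Their GENCODE bodies, extended by 60 kb on each side, held 19 of the 11046 LDB1 peaks, with 7 at the beta locus and 12 at the alpha locus. The peaks came from CUT&Tag, in which an antibody brings a transposase to a bound protein so that the DNA beside it is cut and tagged. The cells were NB4, a human acute promyelocytic leukemia line. A library made with an LDB1 antibody is labelled as coming from cells with LDB1 overexpression and a library made with IgG as coming from untreated cells, so that antibody and treatment cannot be told apart. The study's methods describe an LDB1 expression plasmid with an EF1α promoter but do not tie it to CUT&Tag. Each group had 1 library, so no test was possible, and the 95% intervals given here cover counting error only. No height was given for a peak, only its place and length, and the read depth was unknown. This series holds no RNA data and RNA from the study's other experiments was not used here, so neither the cell line's markers nor globin expression were checked.

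Hemoglobin is built of alpha-type and beta-type globin chains, and each type is encoded by a cluster of genes used at different stages of life. Each cluster is driven by distant enhancers, which are the locus control region (LCR) upstream of HBE1 and a group of conserved elements named MCS-R upstream of HBZ, most of them inside the neighbouring gene NPRL3. In red cell precursors LDB1, which does not bind DNA itself, is held there by LMO2, TAL1 and GATA1, and it is known for joining the LCR to the active beta-type gene by a chromatin loop. The complex is known to sit on a composite element in which an E-box part lies a short, fixed distance from a GATA site. NB4 is a promyelocytic line and not a red cell line.

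Of the 7 peaks that held the composite element, 6 are shown by the stretch around it, since the element is the one the LDB1 complex is known for and 5 of these 6 are at known enhancers. The element was searched on both strands as CTG, then 7 or 8 further bases, then a GATA site. A GATA site was AGATAA, or the same letters with a final G, or either of these with a first T. Sequences are of hg38, plus strand, from 12 bases before the first motif shown to 12 bases after the last one shown. A stretch does not hold every motif of its peak. At HS3, for example, GATA sites at 5284399, 5284531 and 5284705 lie outside it. Capitals mark composites, GATA sites, AP-1 sites (TGACTCA or TGAGTCA) and NF-E2 sites (an AP-1 site preceded by TGC). Motifs on the minus strand are seen reversed, so that a GATA site appears as TTATCT or CTATCA and an NF-E2 site ends in GCA.
HS2 of the LCR, chr11:5280673-5280784: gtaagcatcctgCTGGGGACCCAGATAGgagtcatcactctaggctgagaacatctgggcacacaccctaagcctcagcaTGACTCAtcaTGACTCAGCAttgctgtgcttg
HS3 of the LCR, chr11:5284756-5284929: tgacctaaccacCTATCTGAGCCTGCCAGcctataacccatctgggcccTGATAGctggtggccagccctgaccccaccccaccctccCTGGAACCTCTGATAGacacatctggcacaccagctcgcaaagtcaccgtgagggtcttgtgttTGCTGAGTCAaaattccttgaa
HS4 of the LCR, chr11:5288223-5288316: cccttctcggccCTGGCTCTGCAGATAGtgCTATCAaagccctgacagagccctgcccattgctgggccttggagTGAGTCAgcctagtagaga
MCS-R1, chr16:105128-105167: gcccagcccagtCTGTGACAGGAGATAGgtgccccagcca
MCS-R3, chr16:120080-120119: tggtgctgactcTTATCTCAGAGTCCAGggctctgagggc
Upstream of HBZ, chr16:145093-145133: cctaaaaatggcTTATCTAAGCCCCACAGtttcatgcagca

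Most of the known enhancer positions had a peak nearby, and HBD and HBZ had one over the start. The rule for enhancers was wider than that for starts, so the counts cannot be set against each other. Sites were placed by the distances by which they are usually named, from the start of the canonical HBE1 or HBZ transcript, with 1.5 kb allowed on each side. Of the 9 known enhancer positions, 7 had a peak, namely HS2, HS3 and HS4 of the LCR and all 4 MCS-R elements. HS1 and HS5 had none. The share of windows of that size with a peak elsewhere in the genome was not counted. For scale, the assembled chromosomes had 0.364 peaks per 100 kb, the alpha window 7.57 and the beta window 1.75. Of the 10 globin genes, HBD and HBZ had a peak over the canonical start and the other 8 did not, while 1.59% of protein-coding genes (319 of 20033) had one.

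**Figure D1:**
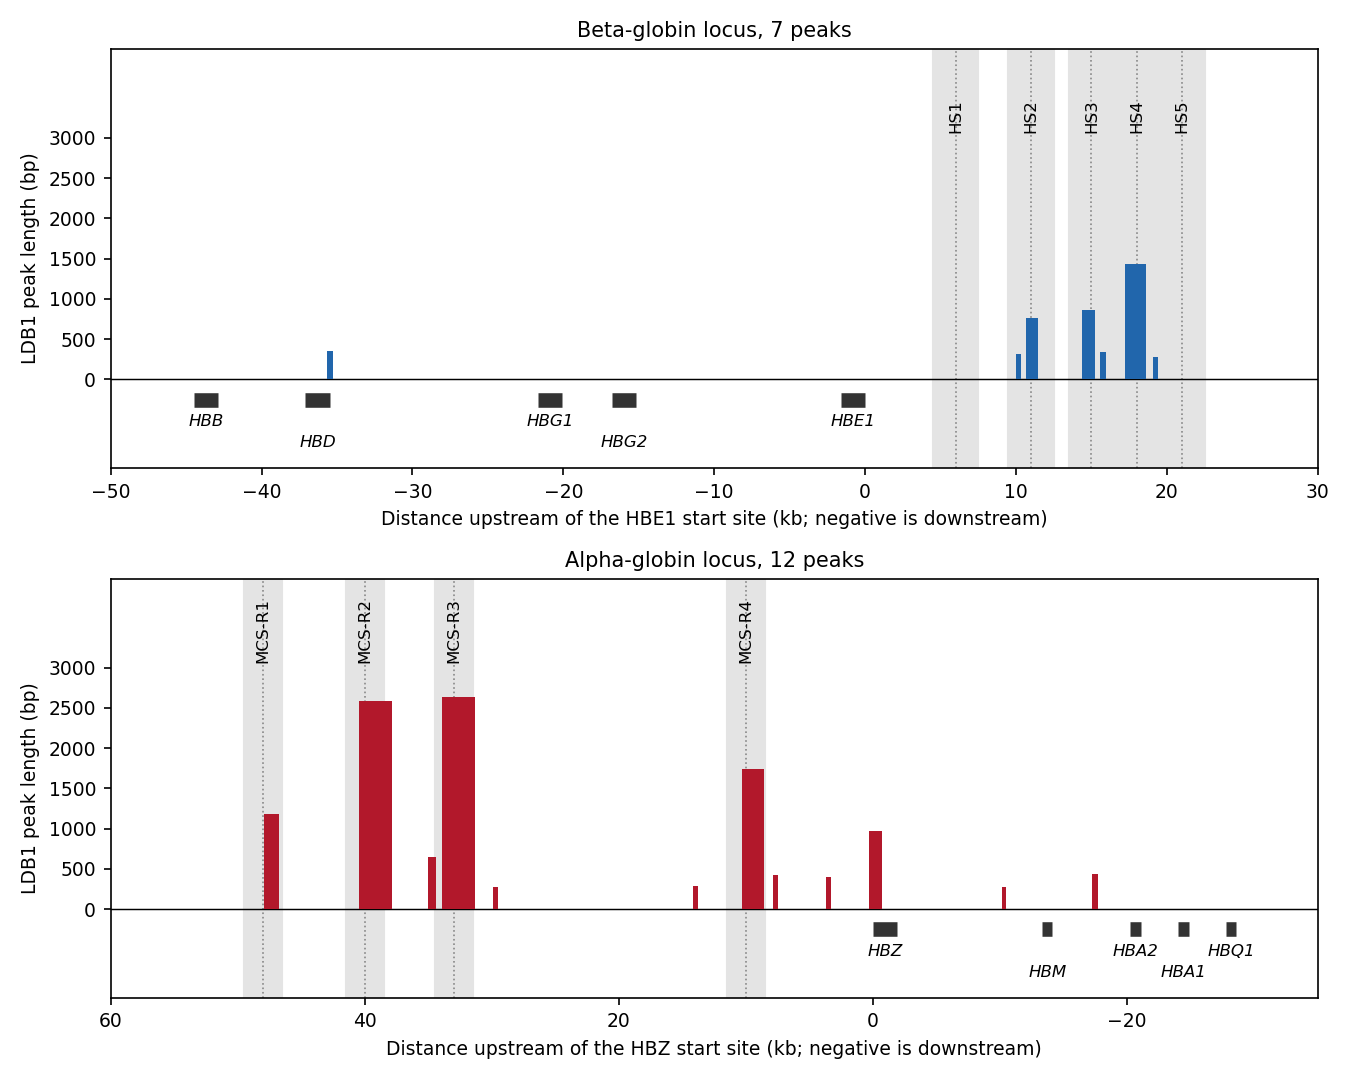
LDB1 peaks as bars (height, length in bp; width, extent, drawn at least 0.35 kb wide) against the distance in kb upstream of the HBE1 start (top, beta locus) or the HBZ start (bottom, alpha locus), with canonical gene bodies in black below, each enhancer's nominal position dotted and 1.5 kb on each side of it in grey. The 6 LCR peaks lie between 9.995 and 19.382 kb upstream of HBE1, and the tallest alpha bars, 2635 and 2586 bp, stand at MCS-R3 and MCS-R2.

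At the beta locus the LCR held 6 of the 7 peaks. They lay within 9388 bp, 42.5% of which was in peaks, and the whole genome had 22 separate stretches of that length with 6 or more peaks. At HS2, an enhancer known for its paired NF-E2 and AP-1 sites, a peak of 766 bp spanned 5280627 to 5281392, with its midpoint 11.064 kb upstream of HBE1. A smaller one of 317 bp stood beside it from 5279940 to 5280256. At HS3, the site known for contacting the active gene, the main peak was 858 bp long, from 5284295 to 5285152, and a peak of 338 bp followed from 5285538 to 5285875. At HS4 the main peak was the longest of the beta locus, at 1438 bp from 5287158 to 5288595, and ranked 456th by length among all peaks. A peak of 276 bp, from 5289052 to 5289327, came after it. The central 31 bases of this peak occurred 15 times in hg38, so that reads from its centre are less surely placed. Each of the 3 occupied sites thus had 1 longer and 1 shorter peak. All 6 lay in intron 6 of ENSG00000239920, a readthrough gene that spans the LCR.

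HS1 and HS5, the outer sites of the LCR, had no detectable peak. The nearest peak was 3995 bp from the nominal HS1 and 1618 bp from the nominal HS5, which is known as a CTCF-bound insulator. With no depth at hand, this does not show that LDB1 was missing from them. With 2.5 kb allowed on each side the count rose to 8 of 9, since the peak of 276 bp and the end of the main HS4 peak then fell within reach of HS5.

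The alpha locus had a peak at each of its 4 enhancers, and these were long. MCS-R2, the main alpha enhancer, had a peak of 2586 bp from 112170 to 114755 in intron 5 of NPRL3, which encodes a regulator of mTORC1 signalling. MCS-R3 had the longest peak of either locus, 2635 bp from 118715 to 121349 in intron 3 of NPRL3. These ranked 60th and 55th by length of all 11046. A further peak of 654 bp, from 117630 to 118283 in intron 4, also fell in the MCS-R3 window. MCS-R1 had a peak of 1183 bp, from 104684 to 105866 in intron 7 of NPRL3, whose edge was 40 bp from the nominal position. MCS-R4, which lies between NPRL3 and HBZ, had a peak of 1739 bp from 142320 to 144058, ranked 249th.

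The remaining NPRL3 peaks were short. One of 278 bp was in intron 3, from 122797 to 123074, and one of 287 bp, from 138528 to 138814, covered the first exon and start of NPRL3. The latter was rich in G and C (72.8%) and held none of the motifs searched. NPRL3 had 6 peaks in all, which covered 7623 bp. No other gene of the alpha window outside the globins had a peak within its body, out of 13 genes and pseudogenes. Of the 36 other genes of the beta window, only the readthrough gene did, and the 22 olfactory receptor genes and pseudogenes among them had none in their bodies. With canonical bodies and 3 kb on each side, 4 of the 13 and 2 of the 36 had a peak, as did 1 of the 22. By that rule 17.8% of protein-coding genes had one, though these neighbours include pseudogenes and noncoding genes.

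Between MCS-R4 and HBZ, which encodes the embryonic zeta chain, there were peaks of 421 bp (144754 to 145174) and 404 bp (148936 to 149339), with midpoints 7.68 and 3.507 kb upstream of its start. The peak at HBZ itself was 970 bp long, from 152342 to 153311, and covered the first exon. Its midpoint was 182 bp downstream of the start. Downstream of HBZ there were only 2 more. A peak of 280 bp, from 162806 to 163085, stood just before the pseudogene HBZP1, with its midpoint 3033 bp upstream of the canonical start of HBM. A peak of 439 bp, from 169872 to 170310, stood between the pseudogene HBAP1 and HBA2, with its midpoint 2785 bp upstream of the HBA2 start. From there to the end of the window, 70869 bp that include HBA2, HBA1, HBQ1 and LUC7L had no peak.

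Among the beta-type genes, the only peak at a start was that of HBD, which encodes the minor adult delta chain. It was 352 bp long, from 5234299 to 5234650, and its midpoint lay 9 bp from the canonical start, in exon 1. The 250 bases before that start are shown because HBD was the only beta-type gene with a peak over its start (RefSeq, GRCh38.p14, chr11:5234484-5234733, minus strand). The peak ends at 5234650, so the first bases of the sequence shown lie outside it. Capitals mark a GATA site on the opposite strand and would also mark a CACCC element (CCNCNCCC or its reverse), of which this window had none.
HBD promoter: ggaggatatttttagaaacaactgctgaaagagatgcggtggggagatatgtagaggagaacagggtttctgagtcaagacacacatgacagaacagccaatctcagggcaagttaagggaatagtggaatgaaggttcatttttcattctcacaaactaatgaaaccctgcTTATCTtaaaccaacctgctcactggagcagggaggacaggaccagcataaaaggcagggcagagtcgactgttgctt
In the RefSeq promoter windows, of 250 bases before and 50 after a start, a GATA site was found in 25% (8769 of 35116) and a CACCC element in 56.2%.

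The genes can be ordered by the distance from the canonical body to the nearest peak. HBD (ENSG00000223609.11, chr11:5232838-5234483) and HBZ (ENSG00000130656.6, chr16:152644-154503) had a peak within it. HBA2 (ENSG00000188536.13, chr16:172876-173710), the more active adult alpha gene, had its nearest peak at 2566 bp. HBM (ENSG00000206177.7, chr16:165978-166764), the mu gene, an alpha-like gene, had its nearest at 2893 bp. HBA1 (ENSG00000206172.8, chr16:176680-177522), the other adult alpha gene, was 6370 bp from a peak. HBB (ENSG00000244734.4, chr11:5225464-5227071), the main adult beta gene, was 7228 bp away. The embryonic HBE1 (ENSG00000213931.7, chr11:5268345-5269945) was 9995 bp from the first LCR peak. HBQ1 (ENSG00000086506.3, chr16:180459-181179), the theta gene, was at 10149 bp. The fetal genes HBG1 (ENSG00000213934.9, chr11:5248269-5249857) and HBG2 (ENSG00000196565.15, chr11:5253188-5254781) were farthest, at 13619 and 18538 bp. Between the HBD peak and the LCR, 45289 bp that hold HBG1, HBG2 and HBE1 had no peak.

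How many globin genes count as having a peak depended on which transcript was taken. With full GENCODE bodies and 3 kb on each side, 6 of 10 did, against 19.7% of protein-coding genes (3947 of 20033). Of these 6, HBG2 and HBE1 had 6 peaks each, and these were the LCR peaks. Long alternative transcripts stretch the 2 genes to 252418 and 237308 bp, whereas their canonical bodies had no peak within 3 kb. With canonical bodies and 3 kb on each side, 4 of 10 had a peak (HBD, HBZ, HBM and HBA2), beside 17.8% of protein-coding genes. With a peak midpoint within 3 kb of the canonical start, 3 of 10 did (HBD, HBZ and HBA2), beside 6.19%. HBB, HBG1, HBA1 and HBQ1 had no peak by any of these counts.

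Counted over 60 kb instead, every globin gene had more peaks than the median protein-coding gene. The windows of neighbouring genes overlap, so the peaks of each locus are counted again for each gene. HBE1, HBG2, HBG1 and HBD each had 7 peaks within 60 kb of the canonical body and HBB had 5. On the alpha side HBQ1 had 9, HBA1 10, HBA2 and HBM 11 and HBZ 12. The median protein-coding gene had 0. Only 3.50% of protein-coding genes had 7 or more, and only 0.609% had 12 or more (122 of 20033).

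The alpha window of 158.452 kb had 7.57 peaks per 100 kb and 7.50% of its bases in peaks. The assembled chromosomes together had 0.364 per 100 kb and 0.208% of bases in peaks, so the alpha window was 20.8 times as dense (interval 10.7 to 36.3). The beta window had 1.75 per 100 kb over 400.189 kb, 4.80 times the genome (interval 1.93 to 9.89). The long HBG2 and HBE1 transcripts widen this window. With canonical bodies it was 164.482 kb, still held all 7 peaks and was 11.7 times as dense as the genome (interval 4.70 to 24.1). Chromosomes 11 and 16 as a whole had 0.380 and 0.416 peaks per 100 kb. Neighbouring peaks are not independent, so these intervals are too narrow.

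The edges of the windows bear on these counts. A peak of 950 bp, from 5164317 to 5165266, ended 198 bp outside the beta window on the HBB side. The first peak inside, at HBD, was 68835 bp from that edge. On the other side of the beta window the first peak outside was 15295 bp away. At the alpha window the nearest peaks outside were 6449 bp away on the telomere side and 17037 bp away on the other.

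In length the 19 globin peaks were like the rest at the middle and held a larger share of long ones, which was not tested. Their median was 439 bp against 451 bp for all peaks, with a range of 276 to 2635 bp. The alpha peaks had a median of 546.5 bp and the beta peaks 352 bp. Of the 19, 8 exceeded the upper quartile of all peaks, 666 bp, and 5 reached 1 kb, compared with 10.5% of all peaks (1161 of 11046). Those 5 were the peaks at HS4, MCS-R1, MCS-R2, MCS-R3 and MCS-R4.

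**Figure D2:**
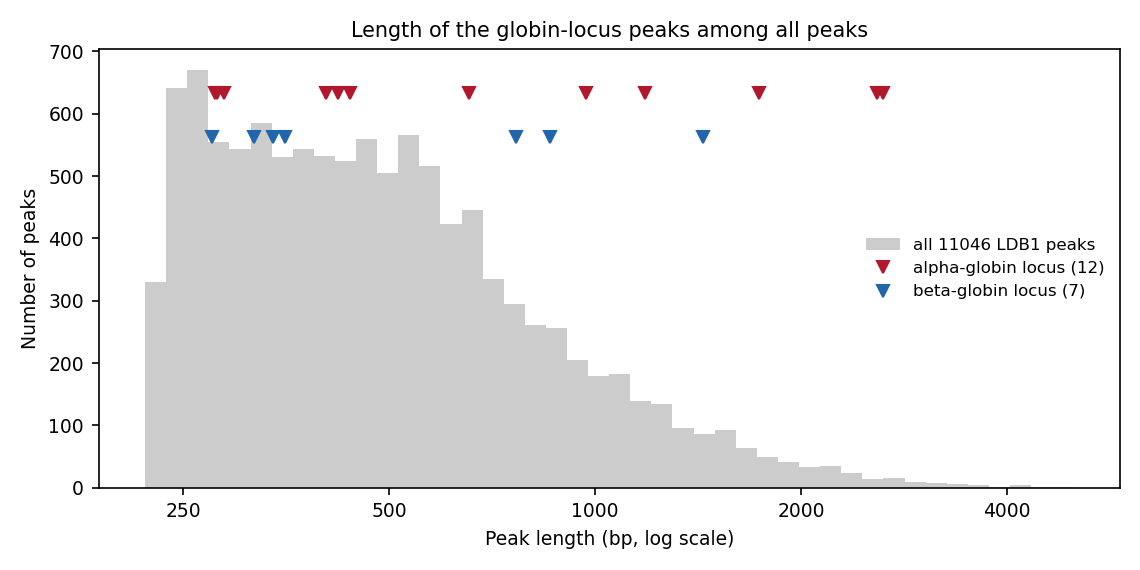
Number of LDB1 peaks (vertical axis) by length in bp (horizontal axis, log scale) for all 11046 peaks in grey, with the 12 alpha-locus peaks (red) and 7 beta-locus peaks (blue) as triangles whose height has no meaning. The globin peaks run from 276 to 2635 bp, and 5 of them pass 1 kb.

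Motif content differed in count between the longest peak at each occupied enhancer and the other globin peaks. These 7 peaks, of 766 to 2635 bp, all had a GATA site, 6 had the composite and 3 had an NF-E2 site. The other 12 globin peaks, of 276 to 970 bp, included 5 with a GATA site, 1 with the composite and none with an NF-E2 site. Longer peaks have more room for a motif, and the part of length in this contrast was not tested. Among peaks of at least 1 kb, the composite was in 4 of 5 globin peaks (interval 37.6 to 96.4%). It was in 46.9% of all peaks of that length (544 of 1161), a share inside the interval. The exception among the 5 was MCS-R4, which had 2 GATA sites but no composite. Per kb, these 5 globin peaks had 0.417 composites, against 0.379 in all peaks of at least 1 kb.

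Of the 8 composites, 6 had 7 bases between their parts and 2 had 8. HS3 alone had 2 composites, one on each strand, as shown in its sequence. The composites lay 53 to 367 bp from the peak midpoint. NF-E2, the erythroid factor known at HS2, has its site in the peaks at HS2, HS3 and MCS-R2. At HS2 the site followed another AP-1 site by 3 bases.

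**Figure D3:**
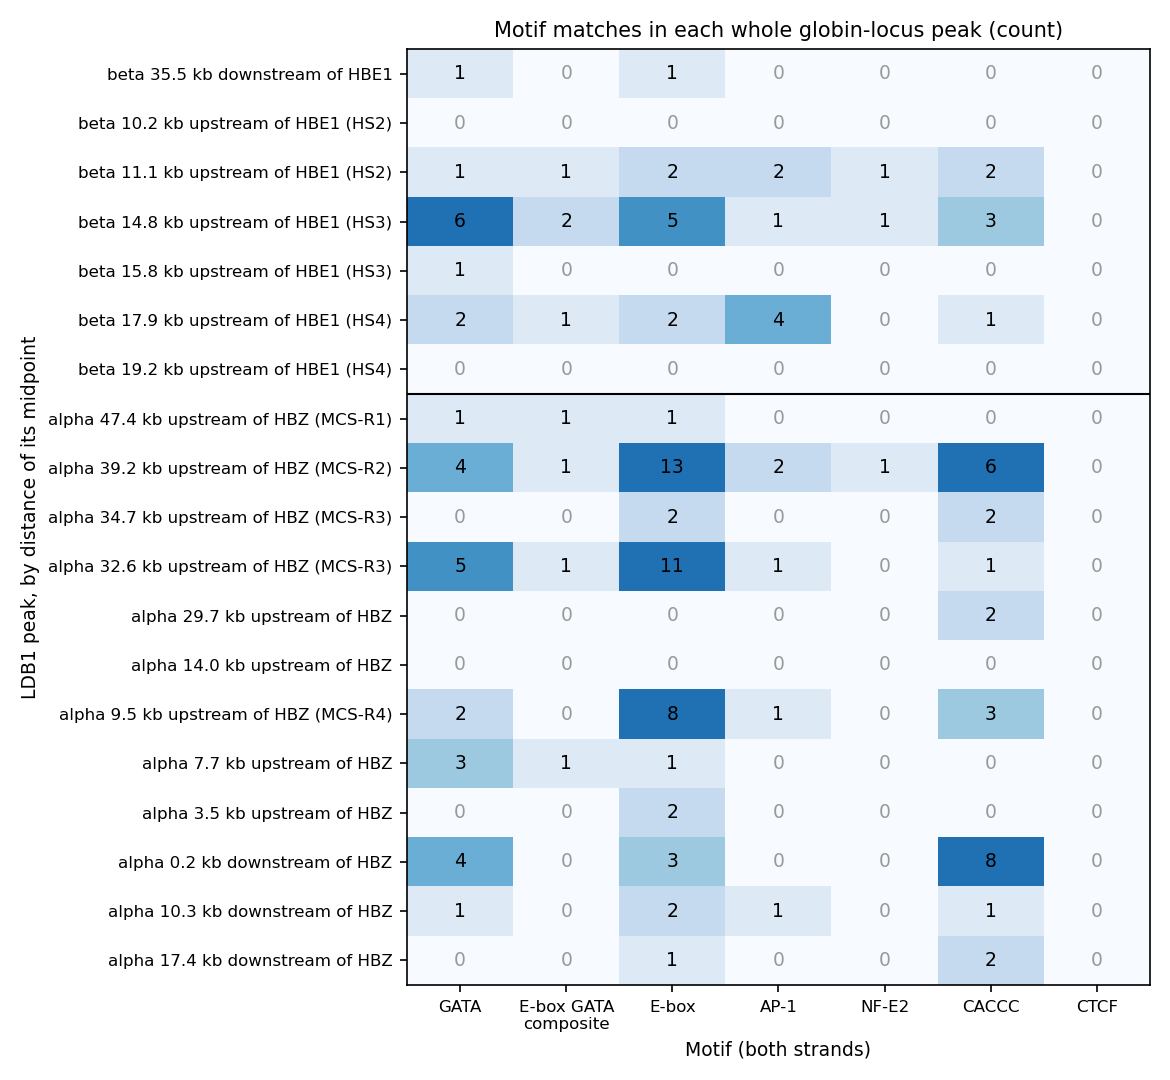
Number of matches to each motif (columns, both strands, darker for more) in each whole globin peak (rows, named by the distance of the midpoint from the HBE1 or HBZ start and by the enhancer window). An E-box CAGCTG counts on each strand, and CACCC stands for the pattern CCNCNCCC. The peaks with composites are at HS2, HS3, HS4, MCS-R1, MCS-R2, MCS-R3 and 7.7 kb upstream of HBZ, and no CTCF match was found.

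Over all 19 peaks, a GATA site in the central 200 bp was no more frequent than elsewhere, at 9 of 19 (47.4%, Wilson interval 27.3 to 68.3%) against 47.1% of all peaks. The composite was in the central 200 bp of 3 of 19 (15.8%, 5.52 to 37.6%) against 11.1%. Anywhere in the peak, a GATA site was in 12 of 19 (63.2%, 41.0 to 80.9%) against 71.4%, and the composite in 7 of 19 (36.8%, 19.1 to 59.0%) against 22.4%. For each of these 4 shares the background lay inside the interval.

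An NF-E2 site was in 3 of 19 peaks (15.8%, 5.52 to 37.6%) against 1.99% of all peaks. The interval lay above that share, but neighbouring peaks are not independent, so it is too narrow. HS2 was known for this site beforehand, and the part of peak length was not tested. Among peaks of at least 1 kb an NF-E2 site was in 1 of 5 globin peaks (20%, 3.62 to 62.4%) against 3.19%. None of the 3 was in the central 200 bp, where 0.905% of all peaks had one. An AP-1 site was in 7 (36.8%, 19.1 to 59.0%) against 19.2%. An E-box of the type CAGATG or CAGCTG was in the central 200 bp of 10 (52.6%, 31.7 to 72.7%) against 33.8%. Over whole peaks it was in 14 (73.7%, 51.2 to 88.2%) against 60% of all peaks (6629 of 11046). The MCS-R2 peak had 13 matches and the main MCS-R3 peak 11. CAGCTG reads the same on both strands and was counted on each, so these counts exceed the number of distinct E-boxes. KLF1 binds CACCC elements at globin promoters, and these were searched as the looser pattern CCNCNCCC. A match was in 11 (57.9%, 36.3 to 76.9%) against 56.6%. The HBZ peak had the most matches, with 8, but among them only GGGTGGGG contained CACCC, seen reversed. The CTCF consensus was in 0 of 19, against 0.643% of all peaks. The Wilson interval reaches 16.8%, and by the limit of 3 counts a 0 allows a share of up to 15.8%.

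Several globin genes have near copies of each other, and a read from an identical stretch cannot be placed at 1 gene. HBA1 and HBA2 were 96.6% identical over their canonical bodies and HBG1 and HBG2 97.8%. Of the 31-base words of HBA1 and HBA2, 79.6% and 80.4% occurred more than once in hg38, and 64.0% and 64.7% of their 100-base words recurred within the window. HBG1 and HBG2 had 63.8% repeated 31-base words each and 39.9% and 39.7% repeated 100-base words. HBZ had 66.9% and 48.2%. HBB, HBD and HBE1 had 9.13%, 8.54% and 1.21% of 31-base words repeated, and HBM and HBQ1 had none. Among the genes without a peak, the body of HBA1 was thus mostly repeated at both word lengths. The bodies of HBG1 and HBG2 were so at 31 bases only, whereas those of HBB, HBE1 and HBQ1 were mostly found once. The 3 kb upstream of the starts differed from the bodies. There the repeated 31-base words were 53.2% at HBA1, 9.63% at HBG1, 17.0% at HBG2, 1.72% at HBB, 15.9% at HBE1 and 17.2% at HBQ1. Among the genes with a peak they were 60.5% at HBA2, 43.0% at HBM, 37.6% at HBZ and 5.45% at HBD. How reads with several places were treated is not stated for these data.

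**Figure D4:**
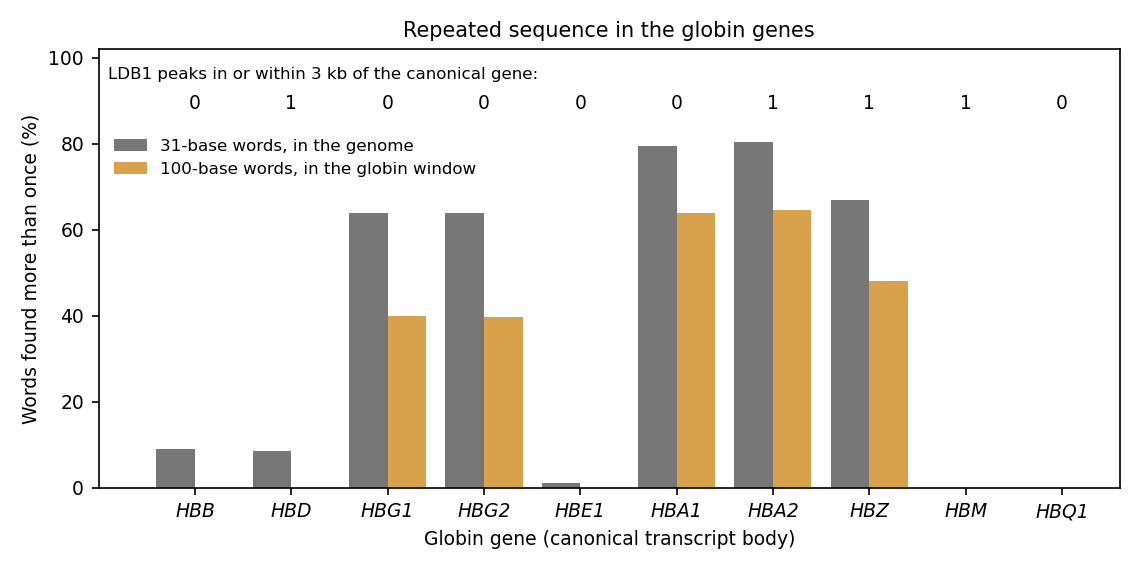
Percentage of the words of each canonical gene body found more than once, for 31-base words in hg38 (grey) and 100-base words in the same globin window (yellow), with the number of LDB1 peaks in or within 3 kb of the gene printed above. The genes with 0 peaks include both repeated (HBG1, HBG2, HBA1) and mostly single-copy genes (HBB, HBE1, HBQ1).

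Repeats also touched some of the peaks. The peak upstream of HBA2 had 72.9% of its 31-base words and 40.9% of its 100-base words repeated, and its central 31 bases occurred 2 times. The peak before HBZP1 had 48.8% and 29.3%, and it was 83.3% identical to part of the HBZ start peak over 264 aligned columns. The central 31 bases of the HBZ peak occurred 2 times as well. Beside these, the peak of 276 bp next to HS4 had a repeated centre. Of its 31-base words 27.2% were repeated, and of its 100-base words 0% within the window. The central 31 bases of the other 16 globin peaks were found once in hg38, and 10.7% of all peaks had a repeated centre.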

How the data were processed

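The authors ran CUT&Tag on NB4 with an antibody to LDB1 or with IgG. Per the labels and the methods, Bowtie2 (2.4.4) placed the reads on hg38 and peaks were called with MACS3 (3.0) at a q-value limit of 0.01. Use of IgG as the control of peak calling, removal of duplicates and treatment of reads with several places are not stated. The deposited LDB1 peak list gave start, end and length in bp. No IgG column was used here.

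A peak belonged to a locus when it overlapped the window by at least 1 base. Genes came from GENCODE 44 (canonical transcripts as tagged there). Enhancers were placed at 6, 11, 15, 18 and 21 kb upstream of HBE1 (HS1 to HS5) and at 48, 40, 33 and 10 kb upstream of HBZ (MCS-R1 to MCS-R4), as their names and textbook maps give them. Motifs were consensus matches on both strands, in the whole peak and in the central 200 bp, since no summit was given. Word copies were counted on both strands of the assembled chromosomes. Shares have Wilson 95% intervals, and density ratios have exact Poisson intervals of the peak count. All globin genes and all peaks of the windows were named. The sequence around 1 composite is not reported here. The RefSeq promoter table matched 2 of 10 globin genes. Counting was tested on simulated data, where 50 of 50 words and 500 of 500 planted composites were recovered. The genes, lists and tests were chosen with earlier results of these data known. Tools were pysam 0.24.0, biopython 1.88, numba 0.67.0, scipy 1.17.1, pandas 2.3.3, numpy 2.4.6, matplotlib 3.10.9 and Python 3.11.15.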

Additional observations from a re-analysis of the deposited data

How the results depend on the processing

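With 1 library per group, the limits are the unknown depth, the missing peak height and summit, and nominal enhancer positions. Of 41 alternatives to 7 main results, 35 left the value within its range (1.5 times for a count) and 6 moved it. Counted among the 35 was the median length, which went from 439 to 1183 bp among peaks longer than the median of all peaks. That choice raises the median by construction, and 1183 bp is the upper bound of the wide interval used (317 to 1183 bp). The windows held 30 peaks with 100 kb on each side and 9 among peaks longer than the median of all peaks, in place of 19. Globin genes with a peak near the start fell from 3 to 1 among peaks longer than that median (HBZ) and to 1 with peaks of a central sequence found once (HBD). In the 100 bp around the midpoint, a GATA site was in 15.8% of the globin peaks and the composite in 0. Of 15 alternatives added after the data were seen, for motif windows and 100-base words, 10 moved the value. The cause was not tested. No paired analysis was possible because neither group had a second library.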

Other observations

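Outside the clusters, globin-family genes and known regulators of the globin genes were looked up by the same rule, a peak in the gene body or within 3 kb. MB, which encodes the muscle protein myoglobin, had 1 peak of 399 bp. CYGB, the widely expressed cytoglobin, had 1 peak of 598 bp. NGB, the neuronal globin, had none, and its nearest peak was 143039 bp away. Of 13 regulators and partners, 11 had a peak, beside 19.7% of protein-coding genes. The list was chosen with earlier results known and supports nothing by itself. The longest were 4273 bp at NFE2, which encodes the erythroid subunit of NF-E2, and 4088 bp at ZFPM1, which encodes the GATA1 cofactor FOG1. BCL11A, a repressor of the fetal globin genes, had no peak nearer than 1066262 bp. AHSP, the chaperone of free alpha chains, had none nearer than 312227 bp.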
